A study of Homo sapiens with 6 samples.

Results

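Mitochondrial ribosomal protein genes encode the proteins of the mitoribosome, the ribosome inside mitochondria, and were examined here for open chromatin at their ends in Nthy-ORI cells, an immortalised line from normal human thyroid follicular epithelium. The members were chosen by symbol: every RefSeq GRCh38 protein-coding gene called MRPL or MRPS plus a number, which gives 77 of 19974 protein-coding genes on chromosomes 1 to 22 and X, 49 MRPL and 28 MRPS. MRPL symbols mostly name proteins of the large subunit and MRPS symbols those of the small subunit, although MRPS18A and MRPS30 have been placed in the large subunit by structural work. Open DNA was mapped in 6 samples with ATAC-seq, an assay in which a transposase (Tn5) cuts accessible DNA and attaches sequencing adapters to it. All cells spent 24 h in phenol-red-free medium with hormone-stripped serum before 2 samples received the NaOH vehicle (labelled 6 h), 2 received 10 nM T3, the active thyroid hormone, for 6 h, and 2 received 10 nM T3 for 24 h. The vehicle samples carry the 6 h label, so hormone and time cannot be told apart at 24 h, and the labels do not state whether the paired samples were separate cultures.

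Mitoribosomes translate the messenger RNAs of the mitochondrial genome, all of which encode subunits of the respiratory chain and ATP synthase. The mitochondrial genome supplies the ribosomal RNAs, while every mitoribosomal protein is encoded in the nucleus, made in the cytosol and imported. The genes are scattered over the nuclear genome (21 chromosomes for these members), and their promoters are of the housekeeping type, active in most tissues. Thyroid hormone is known to raise mitochondrial activity in many tissues.

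The data are 3 lists of peaks (accessible regions), 1 for each group. The authors built every list from a pair of replicates with the irreproducible discovery rate (IDR), which keeps peaks that rank alike in both. The lists held 7103 peaks for vehicle, 12385 for T3 6 h and 60661 for T3 24 h. The peak position was the mean of both replicate summits, the summit being the point of highest signal, and a peak within 1 kb of either boundary of a gene is called a gene-end peak. The signal of a peak is the authors' value, the sum over the 2 replicate columns, with a normalisation that no source used here gives. It was therefore turned into a rank percentile within its own list, where 100 is the strongest. Replicate summits lay a median of 180 bp apart in the vehicle list, 222 bp at 6 h and 46 bp at 24 h, so the lists differed in replicate agreement as well as in length. With 1 list per group there is no replicated value per condition and no p-value, and read depth is unknown, so absence from a list does not show closed DNA. Of the thyroid follicular markers examined, TSHR, PAX8, NKX2-1, FOXE1 and HHEX had a gene-end peak at 24 h, PAX8 also at 6 h, and none of these in vehicle, while TG and SLC5A5 had none in any list. The blood marker PTPRC also had none.

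Promoters of 6 members are shown first because these genes had the strongest 24 h peaks among members with a peak at both T3 times. Each runs 5′ to 3′ on the gene's own strand from 200 bases before to 50 bases after the start site in the RefSeq promoter table (GRCh38.p14). Capitals mark the letters CCGGAAG, the core bound by ETS factors, or AAGATGGC, a core bound by YY1, on either strand. The windows are chr9:101398569-101398818 (minus strand) for MRPL50, chr6:159789612-159789861 (plus) for MRPL18, chr2:105037869-105038118 (plus) for MRPS9, chr5:72320191-72320440 (minus) for MRPS27, chr17:57849995-57850244 (minus) for MRPS23 and chr2:99180984-99181233 (plus) for MRPL30.
MRPL50: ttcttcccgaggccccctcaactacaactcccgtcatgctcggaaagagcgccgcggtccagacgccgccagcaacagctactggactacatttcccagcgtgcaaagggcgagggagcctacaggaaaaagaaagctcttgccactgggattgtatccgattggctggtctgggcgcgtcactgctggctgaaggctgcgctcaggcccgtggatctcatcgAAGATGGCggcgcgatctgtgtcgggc
MRPL18: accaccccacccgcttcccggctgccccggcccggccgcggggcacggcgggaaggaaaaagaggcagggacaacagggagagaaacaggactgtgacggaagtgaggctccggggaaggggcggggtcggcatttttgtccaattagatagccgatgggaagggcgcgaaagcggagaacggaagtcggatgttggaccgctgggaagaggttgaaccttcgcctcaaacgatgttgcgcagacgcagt
MRPS9: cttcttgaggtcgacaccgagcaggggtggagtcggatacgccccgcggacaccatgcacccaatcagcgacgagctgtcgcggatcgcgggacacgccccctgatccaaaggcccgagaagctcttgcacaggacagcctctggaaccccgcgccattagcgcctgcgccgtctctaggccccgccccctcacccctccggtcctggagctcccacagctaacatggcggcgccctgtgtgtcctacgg
MRPS27: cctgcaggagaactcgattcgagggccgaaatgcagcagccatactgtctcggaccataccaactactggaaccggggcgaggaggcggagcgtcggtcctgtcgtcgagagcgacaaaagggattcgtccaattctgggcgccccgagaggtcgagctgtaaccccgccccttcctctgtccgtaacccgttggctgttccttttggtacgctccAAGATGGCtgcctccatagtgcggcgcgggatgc
MRPS23: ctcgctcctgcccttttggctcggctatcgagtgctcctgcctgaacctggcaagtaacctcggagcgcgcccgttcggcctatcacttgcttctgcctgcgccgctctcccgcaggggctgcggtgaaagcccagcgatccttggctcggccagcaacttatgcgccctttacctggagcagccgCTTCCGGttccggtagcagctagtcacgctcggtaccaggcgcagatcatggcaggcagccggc
MRPL30: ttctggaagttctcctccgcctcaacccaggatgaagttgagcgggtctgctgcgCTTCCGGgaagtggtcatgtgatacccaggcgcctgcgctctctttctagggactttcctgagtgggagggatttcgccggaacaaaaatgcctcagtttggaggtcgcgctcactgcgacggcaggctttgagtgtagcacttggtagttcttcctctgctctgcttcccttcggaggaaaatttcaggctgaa

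In these 6 windows the ETS core occurred in MRPS23 and MRPL30 and the YY1 core in MRPL50 and MRPS27, while MRPL18 and MRPS9 held neither. The windows were GC-rich, from 55.2% in MRPL30 to 67.2% in MRPS9.

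Gene-end peaks of the family were rare in vehicle, present at 6 h for a minority and near complete at 24 h. The vehicle list had one at 2 of 77 members (2.60%), where 1.34% of all protein-coding genes had one. The 6 h list had one at 13 members (16.9%), against 10.8% of all genes. The 24 h list had one at 71 members (92.2%), against 60.8% of all genes. The margin over all genes was widest at 24 h in percentage points, but not as a ratio. The vehicle share rested on 2 members, too few to set it apart from the background. A peak in the 24 h list only was found for 57 of the 77 (74.0%, against 49.8% of all genes). A 6 h peak without a vehicle peak was found for 12 members (15.6%, against 10.3% of all genes), and a 24 h peak without a vehicle peak for 69 (89.6%, against 59.7%). A 24 h peak without a 6 h peak was found for 58 (75.3%, against 50.5%). The converse was rare: MRPL57 was the 1 member in the vehicle list that was missing at 6 h (background 0.846%). No member of the vehicle list (0, background 0.225%) or of the 6 h list (0, background 0.551%) was missing at 24 h.

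These counts depended on the length and strictness of the lists. With each list limited to its 7103 strongest peaks, 27 members (35.1%) had a 24 h peak against 16.6% of all genes, and 7 (9.09%) had a 6 h peak against 6.26%. With an IDR of at most 0.01, 70 members had a 24 h peak (90.9%, all genes 55.1%), but 2 remained at 6 h, MRPL37 and MRPS7 (2.60%, all genes 3.59%), and 0 in vehicle, so the 6 h share was then below that of all genes.

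**Figure D1:**
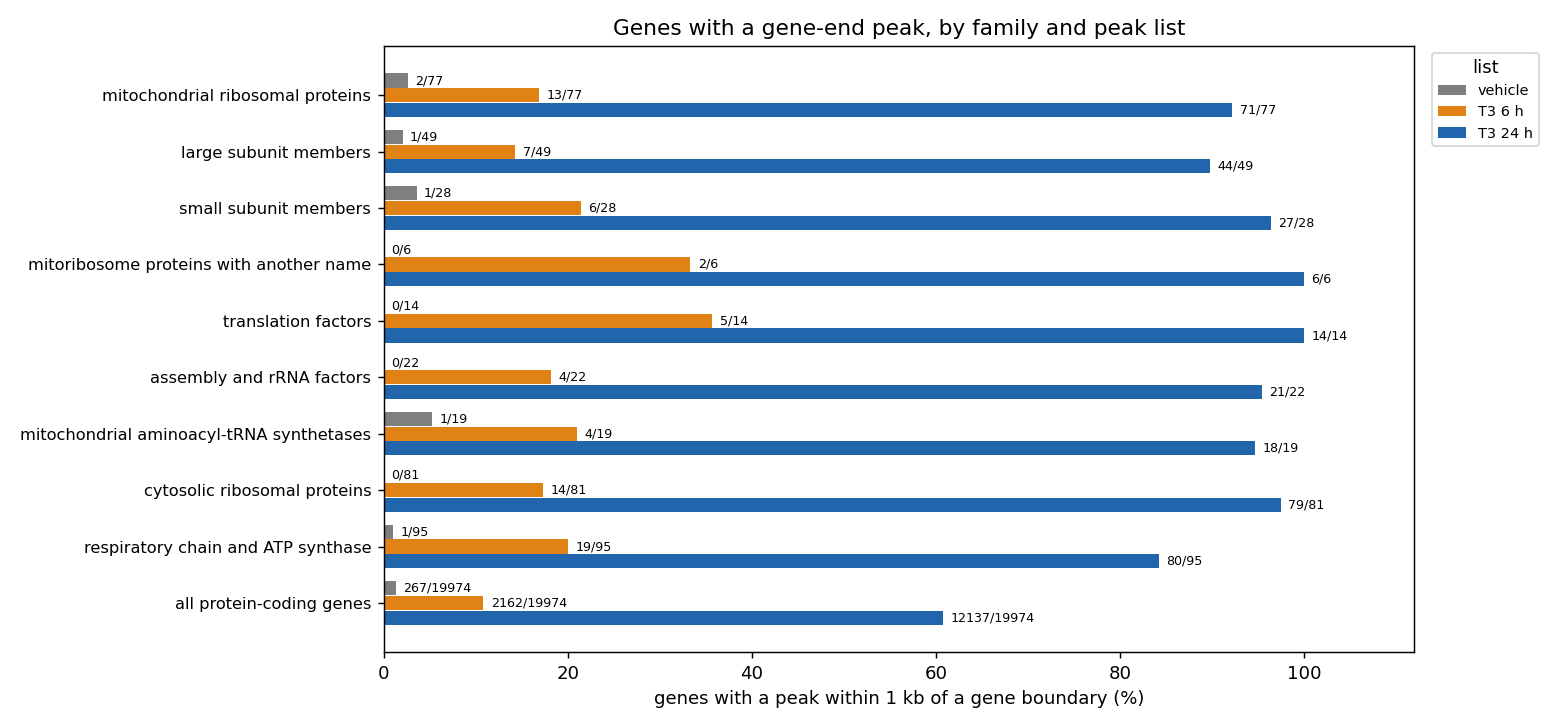
Share of genes with a gene-end peak (x axis, percent of the family) in the vehicle, T3 6 h and T3 24 h lists for the members, the MRPL and MRPS genes apart, other genes of mitochondrial translation, 2 comparison families and all protein-coding genes (y axis). The group of mitoribosome proteins with another name includes KGD4, a subunit of another complex. The number at each bar is genes with a peak over genes in the family; at 24 h the members stand at 71/77 and all genes at 12137/19974.

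Members named for either subunit showed the same order of the lists. Of 49 MRPL genes, 44 had a 24 h peak (89.8%), 7 a 6 h peak and 1 a vehicle peak. Of 28 MRPS genes, 27 were in the 24 h list (96.4%), 6 in the 6 h list and 1 in the vehicle list. The median 24 h rank percentile was 80.5 for MRPL and 89.2 for MRPS peaks, and a difference between the subunits was not tested.

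Accessibility in vehicle was recorded at MRPS23 and MRPL57 alone. MRPS23 encodes a small-subunit protein and was the 1 member with a peak in all 3 lists (background 0.456%). Its vehicle peak, chr17:57849597-57850632 (hg38), had signals of 3.18 and 6.05 in the 2 replicate columns and ranked at percentile 28.9 of its list, with replicate summits 364 bp apart. Its 6 h peak had signals of 6.22 and 3.26 and ranked at percentile 29.7 with summits 17 bp apart. At 24 h both columns were high within their list, 14.4 and 16.5, at percentile 96.6 and with summits 1 bp apart. By single columns MRPS23 stood at percentiles 2.25 and 68.5 in vehicle and 85.8 and 1.08 at 6 h, so its rank in those lists depended on the column. Signals of different lists are not on a shared scale.

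MRPL57, a large-subunit protein gene on chromosome 13 (start boundary 21176658), had vehicle signals of 4.13 and 5.69, percentile 46.9 and summits 778 bp apart. No 6 h peak lay near it, the nearest 6 h summit being 46617 bp from a gene boundary. At 24 h its signals were 16.6 and 15.9, at percentile 97.7 and with summits 6 bp apart. Both vehicle peaks were lost when replicate summits had to lie within 100 bp, and neither reached an IDR of 0.01.

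The 6 h list held peaks at MRPL4, MRPL11, MRPL18, MRPL30, MRPL37, MRPL50 and MRPL53 of the large subunit and at MRPS7, MRPS9, MRPS12, MRPS18B, MRPS23 and MRPS27 of the small one. They were of middling strength in that list, with a median rank percentile of 42.7 (range 13.7 to 74.4), against 49.7 for all 2162 genes with a gene-end peak at 6 h. Of the 13, 0 had the highest possible IDR score, which 16.7% of all such genes had. MRPL37 ranked highest, with signals of 5.19 and 6.18 and summits 346 bp apart. MRPS7, whose bacterial relative helps organise the head of the small subunit, followed with 5.06 and 6.07 and summits 37 bp apart, and its percentile was 70.4. These were the pair that passed an IDR of 0.01.

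The distance between the replicate columns varied among the other members at 6 h. MRPL4, whose bacterial relative lines the exit tunnel, had 6.47 in the first column and 4.06 in the second, which are percentiles 88.1 and 13.5 of those columns. MRPL50 had 6.44 and 2.95, percentiles 87.8 and 0.125, so that the gene with the strongest 24 h peak of the family was near the bottom of the second 6 h column. MRPS18B ran the other way with 3.79 and 6.18, and so did MRPL11, a protein of the ribosomal stalk base, with 3.75 and 5.95. MRPS12, the relative of the bacterial decoding-centre protein S12, had 4.74 and 5.14, and MRPL53, a mitochondria-specific protein, 4.39 and 5.66, with the second column higher in both. MRPL30 had 5.97 and 4.13, MRPS27, a pentatricopeptide-repeat protein, 5.31 and 4.13, MRPL18, which in the bacterial ribosome binds 5S rRNA, 4.95 and 4.72, and MRPS9 4.97 and 4.08, with the first column higher in each. Over the 13 members the second column was the higher in 6, so neither replicate column led throughout. Ranked by the first column alone the median percentile of these peaks was 60.6, and by the second alone 28.0.

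Replicate summits of the 6 h member peaks were nearer to each other than was usual in that list. Their median distance was 94 bp (range 12 to 897), against 214 bp over all genes with a 6 h gene-end peak, and 8 of the 13 (61.5%) had summits within 100 bp, against 28.8%. Those 8 were MRPL4, MRPL30, MRPL50, MRPL53, MRPS7, MRPS18B, MRPS23 and MRPS27. The widest gap, 897 bp, belonged to MRPL18, whose 24 h summits were also 641 bp apart. Median width was 949 bp for member peaks and 1131 bp for all such genes.

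**Figure D2:**
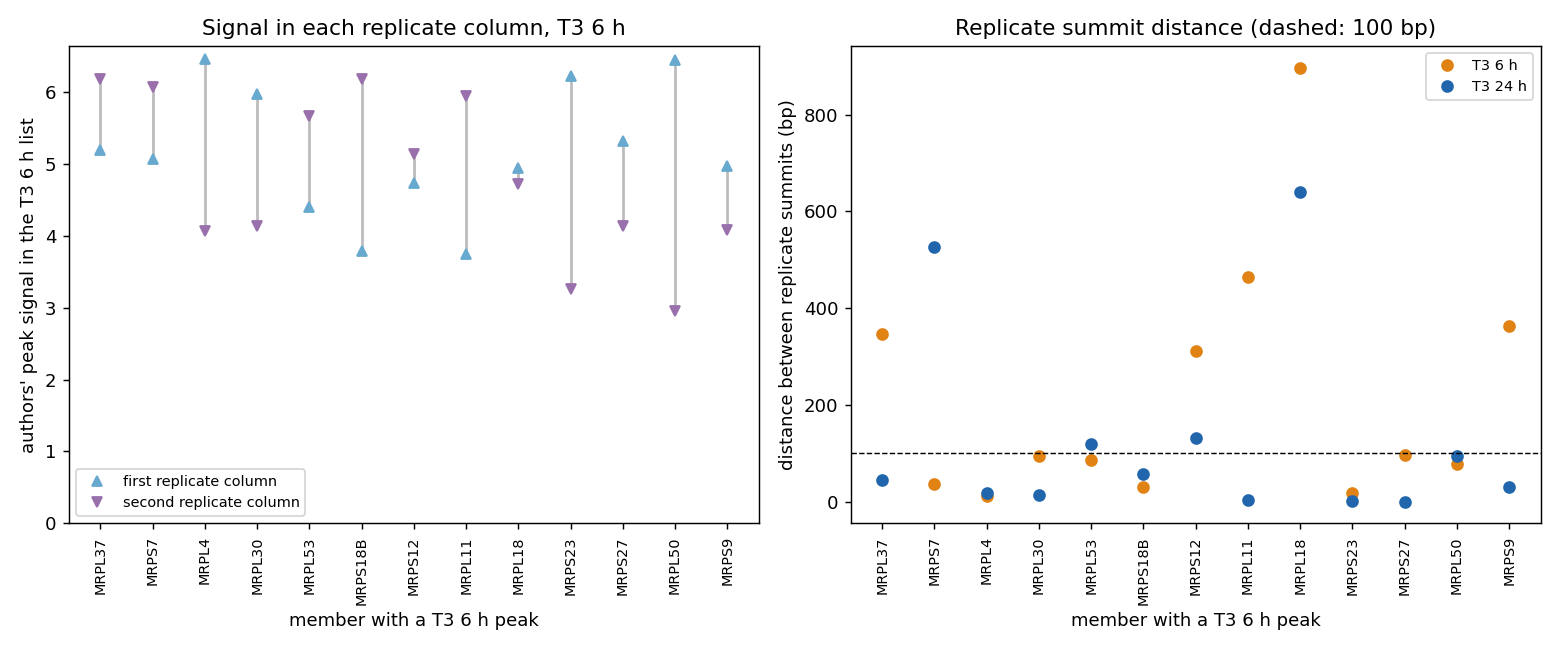
The 13 members with a 6 h peak, ordered by 6 h rank (x axes). Left, the authors' signal of the peak (y axis, normalisation not stated) in the first and second replicate column; right, the distance between replicate summits (y axis, bp) at 6 h and 24 h, where 8 of 13 members lie under the dashed line of 100 bp at 6 h.

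Every one of the 13 members with a 6 h peak also had one at 24 h, at the same boundary, and in all 13 at least 50% of the shorter peak lay within the longer one. This nesting depended on the length of the lists: with lists of equal length, 6 of the 7 members then in the 6 h list were missing at 24 h, and 2 of 8 were when replicate summits had to lie within 100 bp. The same counts over all genes were not made in these settings, so these losses cannot be called particular to the family. Of all 2162 genes in the full 6 h list, 94.9% were in the full 24 h list too. Of the 2052 genes with a peak in both lists, 2012 had one at the same boundary. In 97.3% of them the peaks overlapped by at least 50% of the shorter, so the members were near the share of all genes. Both T3 lists held 16.9% of the members, against 10.3% of all genes. The peak position moved by a median of 94 bp between both lists, least in MRPL30 (4.5 bp) and most in MRPL53 (453.5 bp). Replicate summits were closer at 24 h in 8 of the 13 and farther apart in MRPL4, MRPL50, MRPL53, MRPS7 and MRPS18B. At 24 h the 13 ranked at a median percentile of 87.6 (range 77.6 to 99.8), and the 58 members with a 24 h peak but no 6 h peak at 80.7 (24.7 to 99.1). The ranges overlapped, and over all genes the same medians were 90.4 and 71.8.

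At 24 h the member peaks belonged to the stronger part of the list. Their median rank percentile was 82.7 (range 24.7 to 99.8), against 75.7 for all 12137 genes with a gene-end peak, and 24 of 71 (33.8%) lay above percentile 90, against 23.8%. The highest IDR score was reached by 66 members (93.0%), against 84.6% of those genes. Member peaks were a median of 857 bp wide, against 975 bp, with summits a median of 41 bp apart, against 49 bp. The median percentile was 83.9 by the first column and 79.8 by the second, while single members could differ far more, as MRPS6 did (76.8 and 35.8).

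The 10 strongest members at 24 h were MRPL50, MRPS33, MRPL32, MRPL18, MRPS30, MRPS9, MRPS27, MRPL57, MRPL45 and MRPS23, at percentiles 99.8 to 96.6. MRPL50 led with signals of 19.95 and 23.6 at chr9:101398342-101398939, rank 103 of 60661 peaks. MRPS33 had 15.4 and 21.1, with both replicate summits on the same base, 92 bp from the start boundary. MRPL32, a protein that the mitochondrial m-AAA protease matures before it enters the ribosome, had 16.7 and 19.2. MRPL50 stood at percentile 99.8 in either column. MRPL18 was above it in the first column but less even, with 22.8 in the first column and 12.9 in the second (percentiles 99.9 and 87.6). MRPS30 had 14.8 and 19.9, MRPS9 15.04 and 18.96, and MRPS27 14.9 and 18.3, each higher in the second column. MRPL45, which helps tether the mitoribosome to the inner membrane, had 15.3 and 15.7, with summits 1 bp apart.

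The 5 weakest of the 71 were MRPL28, MRPL36, MRPL43, MRPL41 and MRPS2. MRPS2 had signals of 4.44 and 6.24 (percentile 35.4) with summits 776 bp apart, and MRPL28 5.81 and 4.83 (34.9). MRPL36, a small protein of the large subunit, had 4.22 and 5.95 (29.8). MRPL43 had 5.97 and 3.78, percentiles 48.8 and 6.08 of the columns, which was the widest disagreement of the 71 members. MRPL41 had 4.94 and 4.80 (24.7), and its peak was 168 bp wide, the narrowest of the family. These 5 were also the members whose 24 h peak fell short of the highest IDR score. In all, 7 members (9.86%) ranked below percentile 50 of the 24 h list, against 21.4% of all genes with a gene-end peak.

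**Figure D3:**
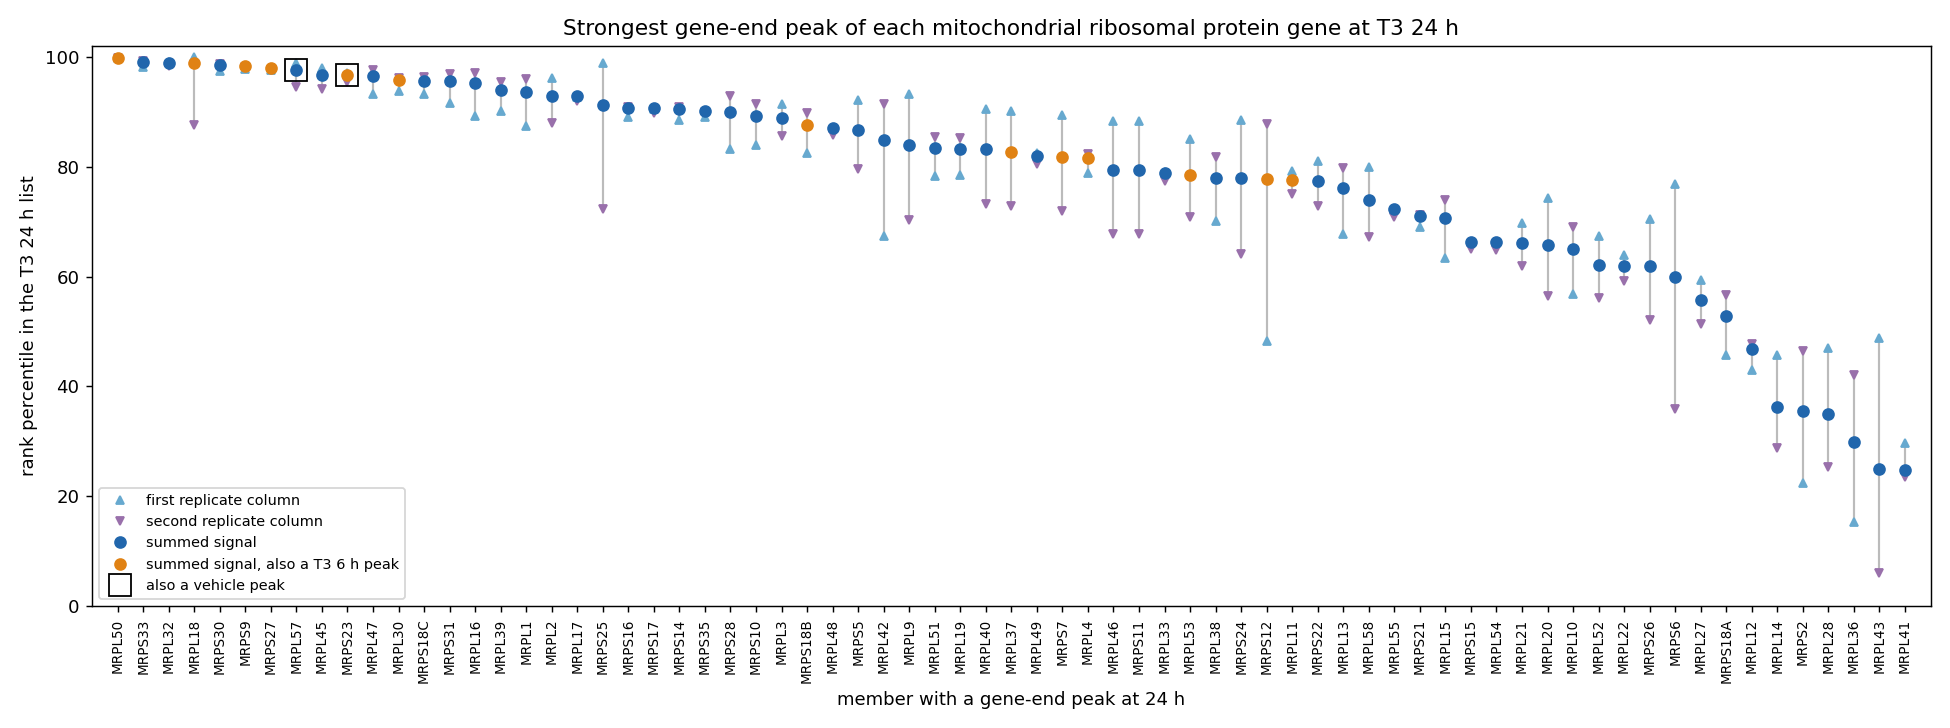
Rank percentile in the T3 24 h list (y axis, 100 strongest) of the strongest gene-end peak of each of 71 members (x axis, ordered by summed signal), with triangles for each replicate column. Orange marks the 13 members that also had a 6 h peak and squares the 2 with a vehicle peak; orange points run from 77.6 to 99.8, and MRPL43, MRPS6 and MRPS12 show the widest gaps between columns.

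Most member peaks at 24 h sat at the transcription start. The RefSeq promoter table gave a strand for 69 of the 77 members (not for MRPL2, MRPL10, MRPL13, MRPL15, MRPL21, MRPL23, MRPL35 and MRPS28). Of these 69, 65 had a 24 h peak at the start boundary (94.2%, against 60.8% of 15813 genes with a strand). At the end boundary 5 members had one, each beside a peak at the start. Of the 15813 genes, 1109 had an end peak, 690 of them beside a start peak, so end peaks were about as frequent in members. The 5 members were MRPL41, MRPL53, MRPS18B, MRPS23 and MRPS27. For MRPL41 and MRPL53, which are 677 and 699 bp long, 1 peak served both boundaries. In MRPS23, MRPS18B and MRPS27 the end had a weaker peak of its own, at percentiles 22.4, 60.4 and 38.6. MRPL2 and MRPL21, without a strand here, had a separate peak at each boundary, with percentiles 92.9 and 72.6 for MRPL2 and 66.1 and 22.9 for MRPL21.

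Among members with no gene-end peak, 3 had a 24 h peak at a start site inside the gene boundaries. The 6 members without a gene-end peak in any list were MRPL23, MRPL24, MRPL34, MRPL35, MRPL44 and MRPS34 (7.79%, against 38.5% of all genes). MRPL44, an RNase III-like protein of the large subunit, had a 24 h peak with signals of 11.9 and 15.2 (percentile 93.1) whose position lay 49.5 bp from the listed start site. MRPL24 had one with 10.3 and 12.8 (percentile 87.4), 138.5 bp from its listed start. MRPL34 had one with 9.59 and 11.1 (percentile 82.4), 12.5 bp from a listed start, and a 6 h peak with 3.65 and 6.83 (percentile 58.1), 105.5 bp from another. The start sites near these 24 h peaks lie inside the outer boundaries that the gene-end rule uses.

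Counting any listed start site within 1 kb, which was added after the data were seen, 68 of the 69 members had a 24 h peak (98.6%, against 64.9% of all genes in the table), 14 a 6 h peak (20.3%, against 12%) and 2 a vehicle peak (2.90%, against 1.30%). The remaining gene was MRPS34, whose nearest 24 h peak lay 9632 bp from its start. Of the 2 genes without a listed start, MRPL35 had its nearest 24 h peak 3877.5 bp from its boundary (signals 12.5 and 12.02, percentile 89.6) and a vehicle peak 4518.5 bp from it, and MRPL23 had its nearest 24 h peak at 1975 bp. The limit of 1 kb separated few cases: at 24 h the members just inside were MRPL51 (736 bp) and MRPS2 (544 bp), and those just outside MRPL34 (1202.5 bp) and MRPL24 (1489.5 bp). At 6 h MRPS18B (551.5 bp) was just inside and MRPL34 (1076.5 bp) just outside.

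The 24 h peak position lay a median of 47 bp upstream of the start site, upstream in 49 and downstream in 19 of the 68 members. The member peak lay within 100 bp of the start in 41 (60.3%), against 46.8% of all genes with such a peak. At 6 h the member median was 55 bp upstream, against 58.5 bp over all genes. Within 100 bp lay 7 of 14 members, against 30.8% of all genes with such a peak.

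**Figure D4:**
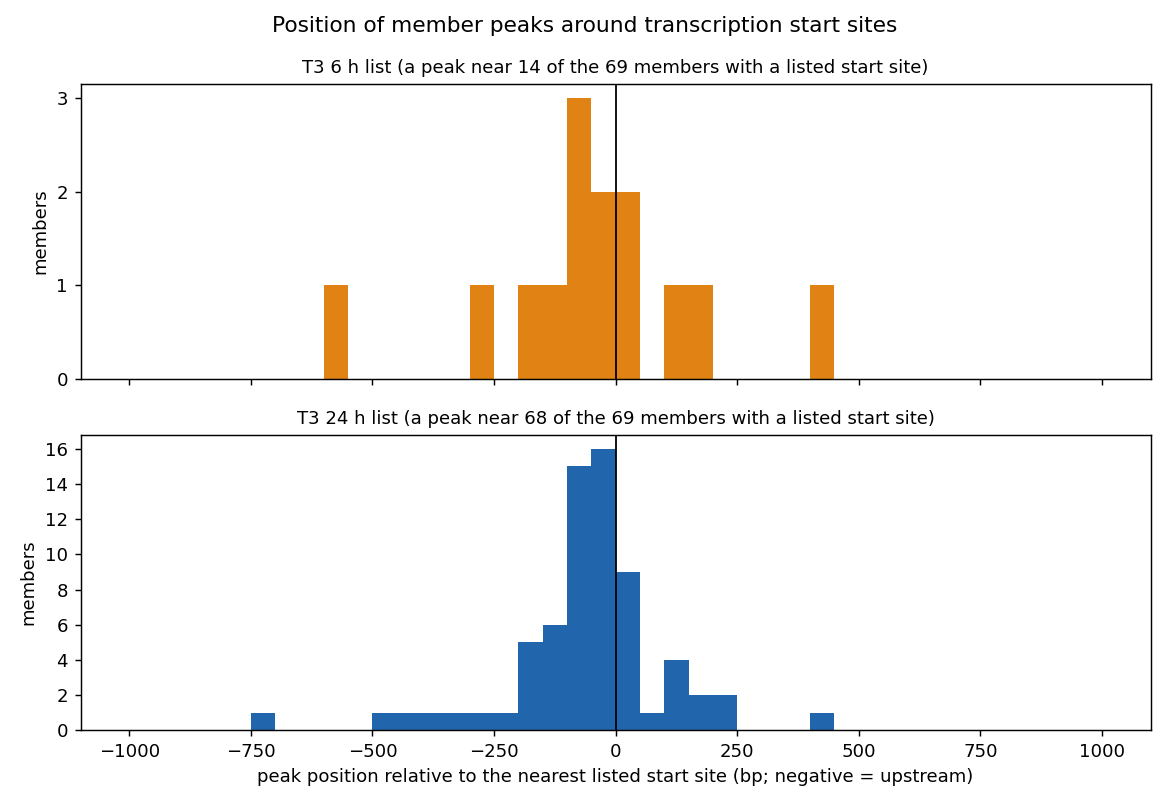
Number of members (y axis) by the position of their nearest peak relative to a start site listed in the RefSeq promoter table (x axis, bp, negative upstream), for T3 6 h (14 members, top) and T3 24 h (68 members, bottom) in bins of equal width. Most 24 h peaks lie within 300 bp of the start (62 of 68, and 8406 of 10260 over all genes with such a peak).

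Many members share their peak with a neighbouring gene. Of the 71 members with a 24 h peak, 32 (45.1%) had another protein-coding gene boundary within 1 kb of the same peak, against 26.7% of all genes with a gene-end peak. At 6 h it was 9 of 13 (69.2%), against 33.6%, and in vehicle 1 of 2, against 18.7%. A peak between neighbours counts for both genes and cannot be assigned to either. By gene boundaries alone, without regard to peaks, 42 members (54.5%) had another protein-coding boundary within 1 kb, against 28.6% of all genes. Whether this arrangement accounts for the sharing of peaks was not tested.

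The 10 strongest shared 24 h peaks paired MRPL50 with ZNF189, MRPL32 with PSMA2, a proteasome subunit, MRPL18 with TCP1, a chaperonin subunit, MRPS27 with PTCD2, MRPL57 with SKA3, a kinetochore protein, MRPL47 with NDUFB5, a subunit of respiratory complex I, MRPL30 with MITD1, MRPS18C with HELQ, a DNA helicase, MRPL2 with KLC4, and MRPS28 with TPD52. Their percentiles ran from 99.8 (MRPL50) to 89.99 (MRPS28). Further pairs joined members to other mitochondrial genes: MRPS12 with SARS2, the mitochondrial seryl-tRNA synthetase (percentile 77.7), MRPL36 with NDUFS6 of complex I (29.8) and MRPL43 with TWNK, the mitochondrial DNA helicase (24.9). One pair joined members to each other, MRPL46 of the large and MRPS11 of the small subunit, which start 320 bp apart and shared a 24 h peak at chr15:88466924-88468152 with signals of 10.9 and 8.60 (percentile 79.4). These examples show that shared peaks ran from the top of the list to its lower part. The median 24 h percentile was 81.9 for members with a shared peak and 84.9 for the others, while over all genes it was 81.0 and 73.8.

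Start boundaries on opposite strands lay within 1 kb of each other for 23 of the 69 members with a strand (33.3%, against 13.7% of genes with a strand). Partners without a strand in the promoter table could not be counted, so a facing start may have been missed. Among the pairs counted, the starts were closest for MRPL36 and NDUFS6, which overlap by 27 bp. The gap was 45 bp for MRPL27 and EME1, 49 bp for MRPL49 and FAU, and 233 bp for MRPL50 and ZNF189. Of these 23 members, 8 (34.8%) had a 6 h peak at the start, and of the other 46, 5 (10.9%). Over all genes those shares were 24.8% and 8.96%. At 24 h the shares were 95.7% and 93.5% for members, and 89.7% and 56.2% over all genes. Members without a facing start in this count thus had a 24 h peak about as often as members with one.

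The promoter letters of the family were compared with those of other promoters. For the 69 members in the promoter table, and 15813 protein-coding genes in all, the window from 250 bases before to 50 bases after the start listed nearest the outer boundary was searched on both strands. The YY1 core AAGATGGC was in 20 member promoters (29.0%), against 3.86% of all promoters and 5.45% of the 10027 whose gene had a 24 h gene-end peak. The ETS core CCGGAAG was in 29 (42.0%), against 14.1% and 19.5%. Both were in 8 (11.6%, against 0.892% of all) and at least 1 of them in 41 (59.4%, against 17.1%). Of 21 YY1 matches, 15 began after the start site and 17 were on the gene's own strand, where the letters hold an ATG, and the median position of the first base was 10 bases after the start. ETS matches, 39 in all, had a median position 22 bases before it.

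The other motifs stood nearer to the background in percentage points, some above and some below it. As a ratio this did not hold for TATAAA, which was rarer in members than in either comparison set. NRF1, a regulator of nuclear genes for mitochondria, was searched for as GCGCA and GCGC with 1 base of any kind between, which was in 8 member promoters (11.6%, against 8.61% of all and 11.9% of those with a 24 h peak). The GGGCGG box bound by SP factors was in 59.4% (58.3% and 69.7%), the CCAAT box bound by NF-Y in 29.0% (36.4% and 37.5%), the E-box CACGTG in 10.1% (8.82% and 10.1%) and TATAAA in 2.90% (9.75% and 5.94%). The thyroid hormone receptor half-site AGGTCA was in 12 members (17.4%, against 11.8% and 9.75%). It was in 2 of the 13 members with a 6 h peak, MRPL11 and MRPL53. Among all 1865 promoters of genes with a 6 h gene-end peak, 10.4% held it. A direct repeat of that half-site with a spacer of 4 bases was in 0 member promoters and in 1 promoter of 15813 (0.00632%). Of the 13 members with a 6 h peak, 4 held the ETS core and 5 the YY1 core, and of 1865 promoters of genes with a 6 h gene-end peak 22.7% and 6.70% did. Member promoters had a median GC content of 60.3%, all promoters 62.7% and those with a 24 h peak 65.0%. A match of letters is a description of the sequence and not of binding, and no binding data were used.

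**Figure D5:**
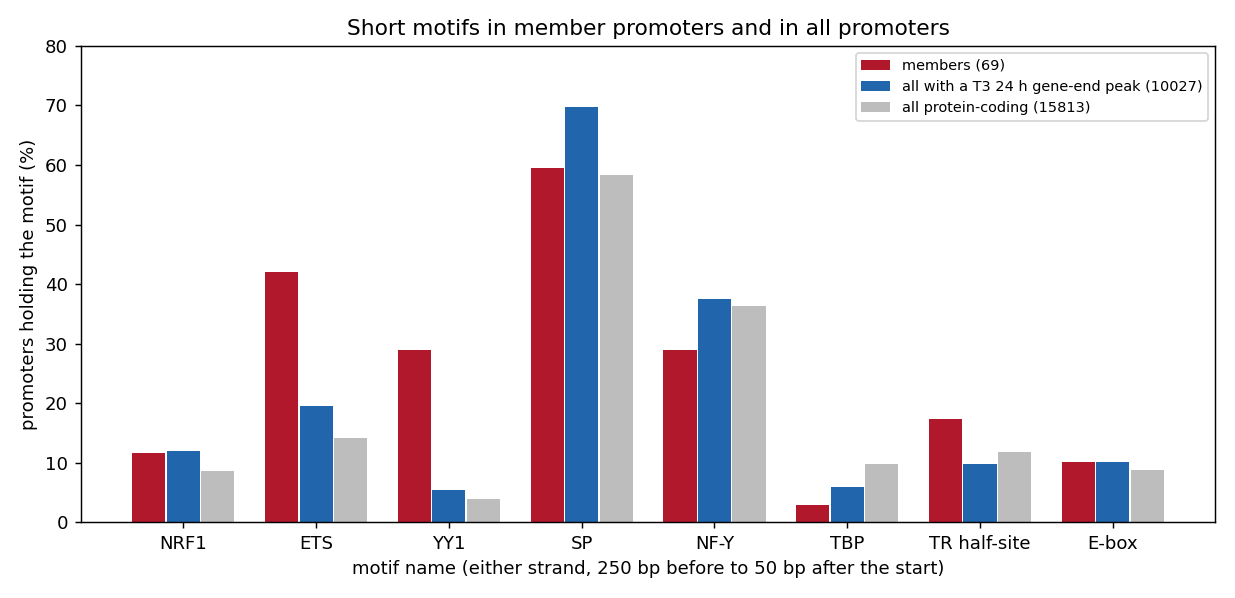
Share of promoters (y axis, percent) that hold each motif on either strand (x axis) for 69 members, for 10027 genes with a 24 h gene-end peak and for 15813 protein-coding genes; NF-Y stands for the CCAAT box, TBP for TATAAA and TR half-site for AGGTCA. The member bars stand highest over the other 2 for YY1 (29.0%, 5.45% and 3.86%) and ETS (42.0%, 19.5% and 14.1%).

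The rest of the mitochondrial translation machinery had a like pattern. A list of 6 genes was drawn up as mitoribosomal proteins that carry another name, but KGD4 among them is now known as a subunit of the alpha-ketoglutarate dehydrogenase complex. All 6 had a 24 h peak, and KGD4 and DAP3, a small-subunit protein, also had one at 6 h, with 24 h percentiles from 46.4 for CHCHD1 to 91.1 for KGD4. Of 14 translation factors, 14 were listed at 24 h and 5 of them at 6 h. TUFM, the mitochondrial elongation factor Tu, stood at percentile 98.6, MTIF2, the initiation factor, at 99.3, and GFM2, which acts in ribosome recycling, had the highest 6 h percentile of these factors, 94.2. Of 22 assembly and ribosomal RNA factors, 21 had a 24 h peak, led by TFB1M, a methyltransferase of the small ribosomal RNA (99.3), and 4 a 6 h peak, and GRSF1 had none. Of 19 mitochondrial aminoacyl-tRNA synthetases, 18 were listed at 24 h and 4 of them at 6 h, FARS2 had none, and GARS1 had the 1 vehicle peak of these groups. The T3 peaks of SARS2 were the same peaks as those counted for the member MRPS12. Over all protein-coding genes the shares were 60.8% at 24 h and 10.8% at 6 h. The synthetase group had the highest median 24 h percentile, 93.6, and 94.4% of its 24 h peaks had summits within 100 bp.

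The families closest in role were alike at 24 h. Of 81 cytosolic ribosomal protein genes, 79 had a 24 h peak (97.5%), 14 a 6 h peak and 0 a vehicle peak, with a median 24 h percentile of 82.6. Of 95 genes with symbols of the respiratory chain and ATP synthase, assembly factors and read-through loci included, 80 had a 24 h peak (84.2%), 19 a 6 h peak and 1 a vehicle peak, with a median 24 h percentile of 86.0. The mitochondrial ribosomal genes thus lay between both families in their 24 h share. Their 6 h share of 16.9% was close to that of the cytosolic genes (17.3%) and of the respiratory chain genes (20%). Replicate summits within 100 bp at 6 h were found in 8 of 13 members, in 4 of 14 cytosolic and in 4 of 19 respiratory chain genes with a 6 h peak. No test between families was made.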

How the data were processed

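Per the submitters' processing notes, the tools were CASAVA 1.7, Trim Galore, Bowtie2, MACS2 and DiffBind with build hg38; no source used here gives settings, read shifting for the Tn5 cut, duplicate handling or any blacklist. The deposited score is the scaled IDR, and the deposited −log10 columns give the IDR itself, at most 0.05 in every list. The deposited signal is the sum of 2 replicate columns that carry no sample name, so they are called first and second column only. Its scale is not stated, and it was used only to rank peaks within a list.

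Gene boundaries came from RefSeq GRCh38.p14, the assembly of hg38 for chromosomes 1 to 22 and X. A peak counts for every gene with a boundary within 1 kb, and for each gene the strongest peak is described. Strand and start sites came from the RefSeq promoter table, which holds 69 of the 77 members. Counts over all protein-coding genes, made the same way, stand beside the members' counts in place of a test. Python 3.11.15, numpy 2.4.6 and pandas 2.3.3 were used. On simulated peaks the code found 300 of 300 planted inside the window and 0 of 300 outside. On the 6 h list, with summits of the first column, all 2204 of its pairs of peak and boundary were also given by bedtools 2.31.1. Named genes are those with a vehicle or 6 h peak, the 10 strongest and 5 weakest at 24 h, those with no peak, those with peaks at both boundaries and the 10 strongest shared pairs; further pairs with mitochondrial genes were chosen after their values were seen. Members, gene lists, motifs and alternatives were chosen with earlier results of these data known. One thyroid marker of the list is not reported here.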

Additional observations from a re-analysis of the deposited data

How the results depend on the processing

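Of 83 recomputed values, 63 stayed within 1.5 times the reported count or median, or within the spread between replicate columns for rank percentiles. Median percentiles by 1 column alone were judged against a spread made from those same medians. Their place among the 63 is therefore no evidence of stability. In vehicle the median percentile was 37.91, but 14.04 by the first column and 64.02 by the second, and both counted as within. No paired analysis was possible because the replicate columns carry no number. Window size, summit column and the whole peak interval moved the 24 h count between 68 and 74 members and the 6 h count between 12 and 14. With a window of 500 bp the shares were 88.3% at 24 h (all genes 52.6%) and 15.6% at 6 h (8.79%). With 2 kb they were 96.1% (67.6%) and 18.2% (12.5%). An IDR of at most 0.01 gave 0 members in vehicle (all genes 0.461%) and 2 at 6 h (2.60%, all genes 3.59%). In that setting 2 had a 6 h and no vehicle peak and 0 the converse. Summits within 100 bp gave 0 in vehicle (all genes 0.320%) and 8 at 6 h (10.4%, all genes 3.14%). In that setting 0 had a vehicle and no 6 h peak, and 2 a 6 h and no 24 h peak. Lists of equal length gave 7 at 6 h and 27 at 24 h; 7 had a 6 h and no vehicle peak, 2 the converse, 25 a 24 h and no vehicle peak, 26 a 24 h and no 6 h peak, and 6 a 6 h and no 24 h peak. Ranking those lists by 1 replicate column alone gave 5 to 10 members at 6 h and 25 to 32 at 24 h, while summits of 1 column alone left 13 and 71. The median 24 h percentile was 70.4 by the deposited score, which is tied at its maximum for most peaks, and 79.4 over all member peaks. The cause was not tested for any of these. Depth is unknown, so no detection limit can be given.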
